A study of Mus musculus with 12 samples.

Results

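The genes described here are 10 members of the T cell inhibitory programme, read in splenic CD4+ T cells: 9 that encode inhibitory surface proteins (Pdcd1, Ctla4, Lag3, Tigit, Havcr2, Btla, Cd160, Cd200 and Cd5) and Tox, which encodes a nuclear HMG-box protein. The genes were listed by name, found by their symbol in the deposited tables and read by their Ensembl identifier in the count matrix. The rule itself uses no measured value, but the list was drawn up with earlier results of these data known. All 10 were among the 55414 gene records of the matrix, and 9 of the 10 passed the filter on low counts in every comparison. Havcr2 did not, with 1 to 18 counts per library.

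The samples were CD4+ T cells from the spleens of wild-type male BALB/c mice, 18 weeks of age. In the LIP group a silk ligature had been tied around the maxillary second molars on both sides to induce periodontitis. Mice of the control (CTL) group had anaesthesia alone. RNA was taken from cells freshly purified by negative selection (day 0) or after a 2-day culture with interleukin-2, anti-TCRβ and anti-CD28 (day 2), with 3 libraries in each of the 4 groups. Library names below give the group and the number in the sample title, such as CTL 88. Nothing further says which mice or cultures were separate, so p-values measure the spread between these libraries. Within each group the day 0 and day 2 libraries carry different numbers, so the days are not paired. The treatment entries of the day 2 libraries differ in the last antibody: CTL 92 and LIP 90 carry anti-CD28, CTL 93 and LIP 96 carry anti-CD29, and CTL 97 and LIP 97 carry anti-CD30, whereas the protocol names anti-CD28 for every culture.

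Total counts per library lay between 6249018 and 7845676 on day 0 and between 8691699 and 12866718 on day 2. With these depths, the limit that a count of 0 allows (3 counts) was 0.269 to 0.452 CPM (counts scaled by each library's total after normalization by the trimmed mean of M-values, TMM). Cd4 stood at 422 to 645 CPM in all 12 libraries and Cd8a at no more than 2.25 CPM. Cd8b1 stood at 3.29 to 6.26 CPM in 10 of the libraries, at 11.0 CPM in LIP 96 and at 8.81 CPM in LIP 97 of day 2. The summed level of 8 B cell markers was 99.3 to 130.0 CPM on day 0, nearly all of it Ighm. On day 2 it was 63.5 to 71.2 CPM in CTL 97, LIP 96 and LIP 97 but 21.1 to 22.9 CPM in the other libraries. The 7 natural killer cell markers summed to 59.7 to 73.2 CPM on day 0 and 6.99 to 22.6 CPM on day 2, apart from 61.9 CPM in LIP 96, of which Gzma made up 46.2 CPM. The largest part on day 0 was Prf1, at 36.2 to 52.6 CPM in the CTL group and 26.5 to 31.3 CPM in the LIP group. Of the 5 tested on day 0, Prf1 was lower in the LIP group (log2 fold change −0.66, SE 0.13, adjusted p = 0.0640, edgeR). The other 4, Gzma (1.51), Ncr1 (0.86), Klrb1c (0.75) and Nkg7 (0.46), were higher with overlap, and none had an adjusted p under 0.05. The 10 myeloid and dendritic cell markers summed to no more than 15.5 CPM, and Cd14 was at no more than 0.263 CPM. In these bulk samples, fewer cells of a type and less RNA per cell cannot be told apart.

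Inhibitory receptors restrain T cells through cytoplasmic tyrosine motifs that recruit phosphatases, through competition for shared ligands, or through other adaptors. Most are nearly silent in naive cells, appear on the surface after antigen receptor signalling and are kept high on chronically stimulated T cells. Tox is known for sustaining the state of exhausted CD8+ T cells and is required for development of CD4+ T cells in the thymus. PD-1 (Pdcd1) binds PD-L1 and PD-L2, CTLA-4 competes with CD28 for CD80 and CD86, LAG-3 binds MHC class II, TIGIT binds PVR (CD155) and nectin-2, BTLA and CD160 both bind HVEM (Tnfrsf14), and CD200 binds CD200R1.

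The members are spread over 7 chromosomes (GRCm39, GENCODE release M39). Ctla4 (ENSMUSG00000026011) lies at chr1:60926159-60954991 and Pdcd1 (ENSMUSG00000026285) at chr1:93966027-93980312. As many as 3 members share chromosome 16: Tigit (chr16:43469100-43484509), Btla (chr16:45044475-45078033) and Cd200 (chr16:45202470-45229594). The gap between Btla and Cd200 is 124436 bases, and that between Tigit and Btla is 1.56 Mb. Lag3 lies at chr6:124881320-124888765, Havcr2 at chr11:46345673-46374149, Cd160 at chr3:96706079-96736667, Cd5 at chr19:10694480-10716366 and Tox at chr4:6686353-6991644. Exons of Cd160 overlap those of Pdzk1 on the opposite strand, which had 0 to 12 counts per library, and Tox overlaps Gm11802 on the opposite strand, with 0 to 1 counts. The libraries were directional, but whether the counting used strand is not given in the sources used here.

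The 250 bases before the start of the canonical transcript are shown for the 3 members on chromosome 16, all of which rose in culture, and for Pdcd1. They are the GRCm39 reference (C57BL/6J), not BALB/c sequence, and are written 5′ to 3′ on the strand of the gene. Each lies just outside the annotated span of its gene, so none overlaps an exon of that gene. Exons of other genes were not checked. Capitals mark the letters GGAAA, which reads as TTTCC when on the other strand, the core bound by NFAT, and TGANTCA, the letters bound by AP-1, both factors that act downstream of the T cell receptor.
Tigit, chr16:43484510-43484759, minus strand: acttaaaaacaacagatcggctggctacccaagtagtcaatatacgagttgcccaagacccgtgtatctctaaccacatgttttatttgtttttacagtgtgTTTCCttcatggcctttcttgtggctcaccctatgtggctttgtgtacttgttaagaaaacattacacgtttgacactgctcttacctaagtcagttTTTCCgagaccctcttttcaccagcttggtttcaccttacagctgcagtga
Btla, chr16:45044225-45044474, plus strand: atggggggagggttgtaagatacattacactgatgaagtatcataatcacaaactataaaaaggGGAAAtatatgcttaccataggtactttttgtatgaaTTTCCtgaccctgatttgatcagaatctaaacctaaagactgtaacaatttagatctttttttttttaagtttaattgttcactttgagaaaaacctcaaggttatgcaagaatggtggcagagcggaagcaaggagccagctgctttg
Cd200, chr16:45229595-45229844, minus strand: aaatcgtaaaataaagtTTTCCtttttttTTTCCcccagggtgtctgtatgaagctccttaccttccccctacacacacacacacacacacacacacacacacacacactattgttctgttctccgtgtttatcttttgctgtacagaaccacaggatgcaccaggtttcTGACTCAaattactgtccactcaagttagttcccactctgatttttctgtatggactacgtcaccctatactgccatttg
Pdcd1, chr1:93980313-93980562, minus strand: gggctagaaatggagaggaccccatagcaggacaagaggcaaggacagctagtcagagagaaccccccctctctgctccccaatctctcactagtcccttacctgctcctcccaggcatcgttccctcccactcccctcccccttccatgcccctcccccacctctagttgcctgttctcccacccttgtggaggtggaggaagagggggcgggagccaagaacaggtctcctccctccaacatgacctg

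The Cd200 window held GGAAA at 233 and 221 bases before the start and TGANTCA at 80 bases before it. The Tigit window held GGAAA at 148 and 51 bases, the Btla window at 186 and 149 bases, and the Pdcd1 window neither. Among all 10 members, 6 held GGAAA and 2 held TGANTCA. Of 21770 protein-coding genes, 58% held GGAAA and 6.17% held TGANTCA in the same window. The letters are a description of this window and say nothing about binding.

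**Figure D1:**
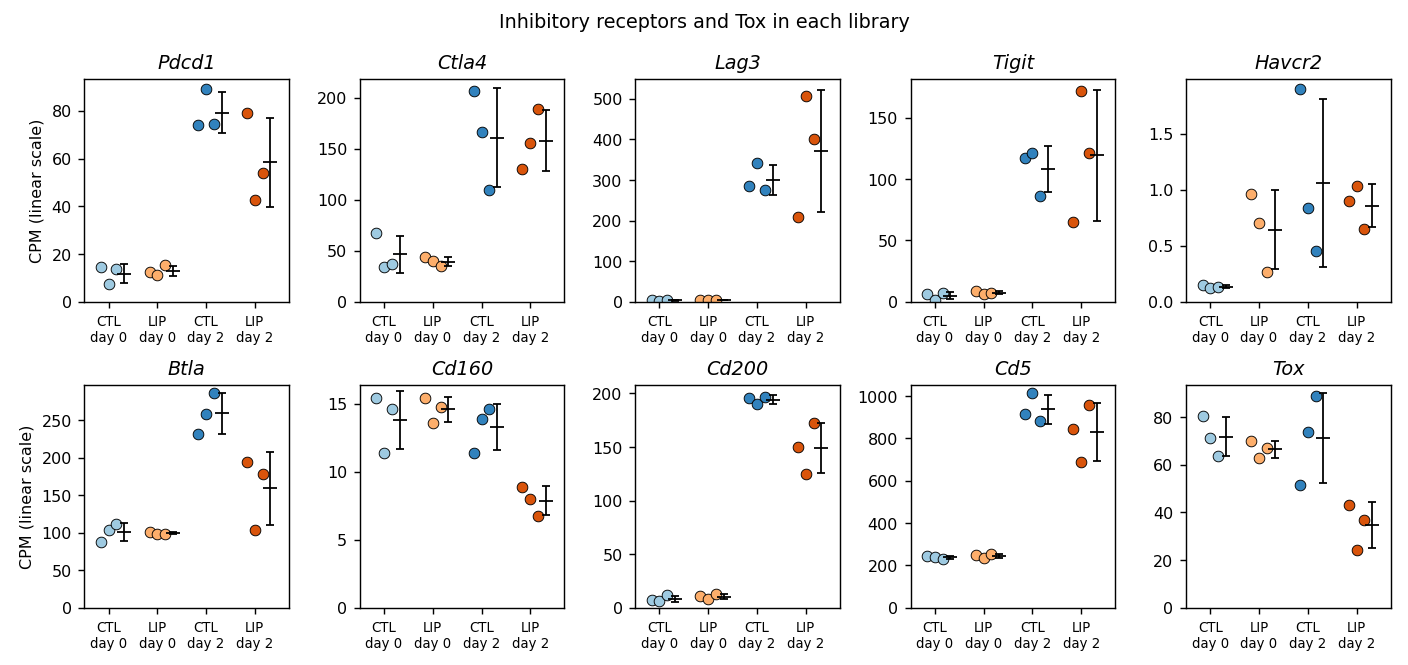
Expression of the 10 members in each library, in CPM on a linear axis that starts at 0 and differs between panels. Points are the 3 libraries of each group in the order of their numbers, and bars are mean ± SD. Lag3, Tigit and Cd200 leave levels below 13 CPM on day 0 for 65.2 CPM or more on day 2, while Tox and Cd160 are lower in the LIP group on day 2 than in the other 3 groups.

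The first question was how the members stood in freshly purified cells and what the culture did to them. On day 0, levels per kilobase of exon placed Cd5 first at 47.1 ± 1.41 CPM per kb in the CTL group (mean ± SD, n = 3), followed by Btla (25.6 ± 3.08), Ctla4 (19.9 ± 7.78) and Tox (9.28 ± 1.08). Lag3 stood next to last at 1.54 ± 0.507 and Havcr2 last at 0.0275 ± 0.00314 CPM per kb. Btla and Ctla4 overlapped, as did each neighbour from Pdcd1 through Cd160, Tigit and Cd200 to Lag3. In the LIP group on day 0 the first 4 places were the same and Tigit came next (7.06 ± 0.923), overlapping Pdcd1 (6.61 ± 1.08), which overlapped Cd160. On day 2 the order in the CTL group was Cd5 (186 ± 13.3), Lag3 (135 ± 16.2), Tigit (103 ± 17.9), Ctla4 (69.0 ± 20.9), Btla (66.2 ± 7.09), Cd200 (47.8 ± 0.923), Pdcd1 (40.3 ± 4.37), Tox (9.21 ± 2.43), Cd160 (5.02 ± 0.635) and Havcr2 (0.218 ± 0.154). Tigit with Ctla4 and Ctla4 with Btla overlapped there. In the LIP group on day 2, Lag3 (168 ± 67.5) and Cd5 (164 ± 27.0) came first, and the neighbours from Lag3 through Cd5 and Tigit to Ctla4 overlapped, as did those from Btla through Cd200 to Pdcd1. Tox (4.47 ± 1.23) overlapped Cd160 (2.96 ± 0.403).

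Of the 9 tested members, 7 rose over the culture in the CTL group and as many, 7, in LIP cells (edgeR, adjusted p under 0.05). Among all 15475 genes tested, 35.3% were called higher and 33.7% lower in the CTL group, and 36.6% higher and 35.2% lower in the LIP group. The members that rose were Lag3, Tigit, Cd200, Pdcd1, Ctla4, Cd5 and Btla in both groups. In the LIP group Tox and Cd160 fell, and in the CTL group neither passed the test. Culture and the change of libraries between the days cannot be told apart. The summed level of 5 activation markers (Mki67, Il2ra, Tnfrsf4, Cd44 and Cd69) moved from 486 to 701 CPM on day 0 to 4284 to 4753 CPM on day 2. All 5 rose in LIP cells and 4 in CTL cells, where Cd69 changed by 0.13 (adjusted p = 0.561, edgeR).

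Lag3, an inhibitory receptor structurally related to CD4, changed most. It stood at 2.17 to 4.34 CPM in the 3 CTL libraries and 3.07 to 4.00 CPM in the 3 LIP libraries on day 0. On day 2 it stood at 284 (CTL 92), 342 (CTL 93) and 275 CPM (CTL 97), and at 209.9 (LIP 90), 506 (LIP 96) and 401 CPM (LIP 97). The days did not overlap in either group. The rise was 88.3-fold in the CTL group (log2 fold change 6.46, SE 0.34; adjusted p = 2.85e-09, edgeR) and 102-fold in the LIP group (6.68, SE 0.34; adjusted p = 2.10e-09).

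Tigit, an immunoglobulin-family receptor that competes with the activating receptor CD226, stood at 1.69 to 8.41 CPM in the 6 day 0 libraries. On day 2 it stood at 117, 121 and 86.5 CPM in CTL 92, 93 and 97 and at 65.2, 172 and 121 CPM in LIP 90, 96 and 97. It rose by 4.47 (SE 0.41) on the log2 scale in the CTL group and by 4.00 (SE 0.39) in the LIP group, with adjusted p = 4.53e-07 and 6.99e-07 (edgeR). LIP 90 was the lowest day 2 library for both Lag3 and Tigit.

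Cd200, whose product is a ligand for the inhibitory receptor CD200R1, stood at 6.02 to 11.7 CPM in the CTL group and 7.74 to 12.6 CPM in the LIP group on day 0. On day 2 the CTL libraries lay close together at 196, 189.9 and 197 CPM, and LIP 90, 96 and 97 at 150.1, 125 and 172 CPM. The rise was 23.7-fold in the CTL group (4.57, SE 0.22; adjusted p = 1.73e-09, edgeR) and 14.5-fold in the LIP group (3.85, SE 0.21; adjusted p = 4.62e-09).

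Pdcd1, which encodes PD-1, stood at 7.34 to 14.5 CPM in the CTL group and 11.3 to 15.4 CPM in the LIP group on day 0. Day 2 values were 74.2, 89.2 and 74.5 CPM in the CTL libraries and 79.0 (LIP 90), 42.5 (LIP 96) and 53.9 CPM (LIP 97). It rose 6.77-fold in the CTL group (2.76, SE 0.26) and 4.49-fold in the LIP group (2.17, SE 0.25), with adjusted p = 5.29e-07 and 3.98e-06 (edgeR). Ctla4 stood at 34.4 to 67.2 CPM on day 0 and 109.6 to 206 CPM on day 2 over both groups. Its log2 rise was 1.80 (SE 0.26) in the CTL group and 2.01 (SE 0.26) in the LIP group.

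Cd5, a scavenger-type receptor whose level tracks the strength of T cell receptor signals and which dampens them, had the highest counts of the members. It stood at 230.2 to 254 CPM in the day 0 libraries and 688 to 1013 CPM in the day 2 libraries. It rose 3.94-fold in the CTL group and 3.40-fold in the LIP group (1.98 and 1.76 on the log2 scale, each SE 0.12). Btla stood at 87.2 to 111 CPM on day 0. On day 2 it stood at 232, 259 and 287 CPM in CTL 92, 93 and 97 and at 194, 104 and 179 CPM in LIP 90, 96 and 97, so that LIP 96 lay close to the day 0 libraries. Btla rose by 1.37 (SE 0.18; adjusted p = 1.72e-05, edgeR) in the CTL group and by 0.68 (SE 0.18; adjusted p = 0.00433) in the LIP group. The latter call was lost with upper-quartile normalisation (0.35, adjusted p = 0.0781) and with total counts only (0.32, adjusted p = 0.125), which moved the median of all genes in that comparison to −0.32 and −0.36.

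Cd160 and Tox took another course. Cd160, a receptor for HVEM found on natural killer cells and T cell subsets, stood at 15.4, 11.4 and 14.6 CPM in CTL 88, 89 and 94 on day 0 and at 11.4, 13.9 and 14.6 CPM in CTL 92, 93 and 97 on day 2, a change of −0.05 (SE 0.16; adjusted p = 0.793, edgeR). In the LIP group it stood at 15.4, 13.6 and 14.8 CPM on day 0 and at 8.87, 7.96 and 6.74 CPM on day 2, and fell by 0.89 (SE 0.17; adjusted p = 3.06e-04). Cd160 rests on 52 to 129 counts per library. Tox stood at 80.5, 71.4 and 63.8 CPM in the CTL group on day 0 and at 51.4, 74.0 and 88.8 CPM on day 2, a change of −0.01 (SE 0.20; adjusted p = 0.968). In the LIP group it stood at 69.9, 62.8 and 67.2 CPM on day 0 and at 43.0, 24.2 and 36.7 CPM on day 2, and fell by 0.94 (SE 0.21; adjusted p = 0.00109). The 2 days did not overlap for Cd160 or Tox in the LIP group, and they did overlap in the CTL group.

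Havcr2, which encodes TIM-3, a receptor of terminally differentiated T cells and of myeloid cells, had 1 count in each CTL library on day 0 and 7, 5 and 2 counts in LIP 92, 93 and 94. On day 2 CTL 92, 93 and 97 had 18, 7 and 4 counts, whereas LIP 90, 96 and 97 had 10, 11 and 5 counts. On day 0 the LIP libraries lay above the CTL libraries without overlap, with 4 of these 6 values under the 3-count limit, and on day 2 the groups overlapped. Havcr2 was tested in no comparison.

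**Figure D2:**
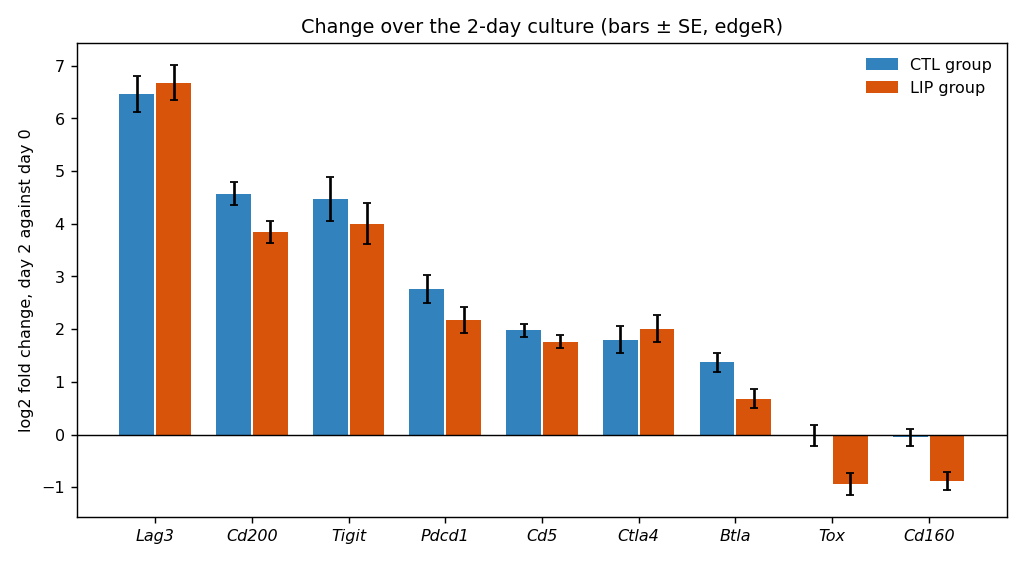
Log2 fold change from day 0 to day 2 for the 9 tested members (vertical axis) in the CTL group (blue) and the LIP group (orange), with the standard error of the edgeR fit as error bars and genes ordered by the change in the CTL group. Lag3 is highest in both (6.46 and 6.68), and the bars of Tox and Cd160 are near 0 in the CTL group and below 0 in the LIP group.

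The second question was whether periodontitis altered the members in freshly purified cells. On day 0 none of the 9 tested members was called between the LIP and CTL groups, none of the 9 had an unadjusted p under 0.05, and in none of the 9 did the libraries of the groups separate. Among the 14064 genes tested, 0.427% were called at an adjusted p under 0.05, 13.9% had an unadjusted p under 0.05, and 19.2% did not overlap between groups. DESeq2 called 202 genes and no member. Tigit had the largest estimate, 0.61 (SE 0.37; 95% interval −0.21 to 1.43; adjusted p = 0.502, edgeR), and CTL 89 with 1.69 CPM lay below the other 5 libraries, which stood at 6.18 to 8.41 CPM. Without CTL 89 the estimate for Tigit was 0.17, and with any 1 library left out it ran from 0.17 to 0.98. CTL 89 was also the lowest day 0 library for Pdcd1 (7.34 CPM), Ctla4 (34.4 CPM), Lag3 (2.17 CPM), Cd160 (11.4 CPM) and Cd200 (6.02 CPM). The estimate for Cd200 was 0.33 (interval −0.24 to 0.91), for Ctla4 −0.22 (−0.68 to 0.23), for Pdcd1 0.16 (−0.34 to 0.67) and for Lag3 0.10 (−0.56 to 0.76). The intervals were narrower for the more abundant Btla (−0.20 to 0.18), Cd5 (−0.10 to 0.19) and Tox (−0.31 to 0.10), and for Cd160 the interval was −0.23 to 0.42. Among the activation markers, Cd69, an early marker of T cell activation that was named after its values were seen, was called lower in the LIP group, with 387, 297 and 215 CPM in CTL 88, 89 and 94 and 176, 152 and 152 CPM in LIP 92, 93 and 94 (−0.90, SE 0.16; adjusted p = 0.0375). The alternative settings were not run for Cd69.

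On day 2 again no member was called at an adjusted p under 0.05, and neither was any of the 14041 genes tested (0.00%, edgeR; smallest adjusted p = 0.0568; 16.5% of genes at an unadjusted p under 0.05). Of the 9 tested members 4, Tox, Cd160, Btla and Cd200, had an unadjusted p under 0.05. The same 4 did not overlap between the groups, each lower in the LIP group, where 21.3% of all genes tested did not overlap in either direction. The log2 fold change was negative for 7 of the 9, with a median of −0.39 against −0.01 over all genes tested. DESeq2 called 485 genes, among them Tox (adjusted p = 0.00532) and no other member, and one edgeR fit over all 12 libraries called 775 genes, among them Tox (adjusted p = 0.0146), Cd160 (0.0226) and Btla (0.0403).

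Tox showed the largest difference, 71.4 ± 18.9 CPM in the CTL group and 34.6 ± 9.53 CPM in the LIP group (mean ± SD, n = 3 each). The lowest CTL library (CTL 92, 51.4 CPM) lay above the highest LIP library (LIP 90, 43.0 CPM). The log2 fold change was −1.06 (SE 0.25; 95% interval −1.62 to −0.49), and the adjusted p over all genes was 0.135 (edgeR). Cd160 stood at 13.3 ± 1.69 CPM in the CTL group and 7.85 ± 1.07 CPM in the LIP group, a log2 fold change of −0.77 (SE 0.18; interval −1.18 to −0.35; adjusted p = 0.138).

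Btla, which shares the ligand HVEM with Cd160, stood at 259 ± 27.8 and 159 ± 47.9 CPM in the CTL and LIP groups, a log2 fold change of −0.71 (SE 0.22; interval −1.22 to −0.21; adjusted p = 0.187, edgeR). Cd200 stood at 194 ± 3.75 and 149 ± 23.6 CPM, a log2 fold change of −0.39 (SE 0.14; interval −0.71 to −0.08; adjusted p = 0.223). The ligand gene Tnfrsf14 itself had a log2 fold change of 0.08 (SE 0.17; adjusted p = 0.853).

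The remaining members overlapped between the groups. Pdcd1 stood at 79.3 ± 8.59 CPM in the CTL group and 58.5 ± 18.7 CPM in the LIP group (−0.45, SE 0.21; interval −0.93 to 0.03; adjusted p = 0.332, edgeR). Cd5 differed by −0.18 (interval −0.54 to 0.17), Ctla4 by −0.03 (−0.57 to 0.50), Tigit by 0.13 (−0.57 to 0.84) and Lag3 by 0.30 (−0.34 to 0.94).

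**Figure D3:**
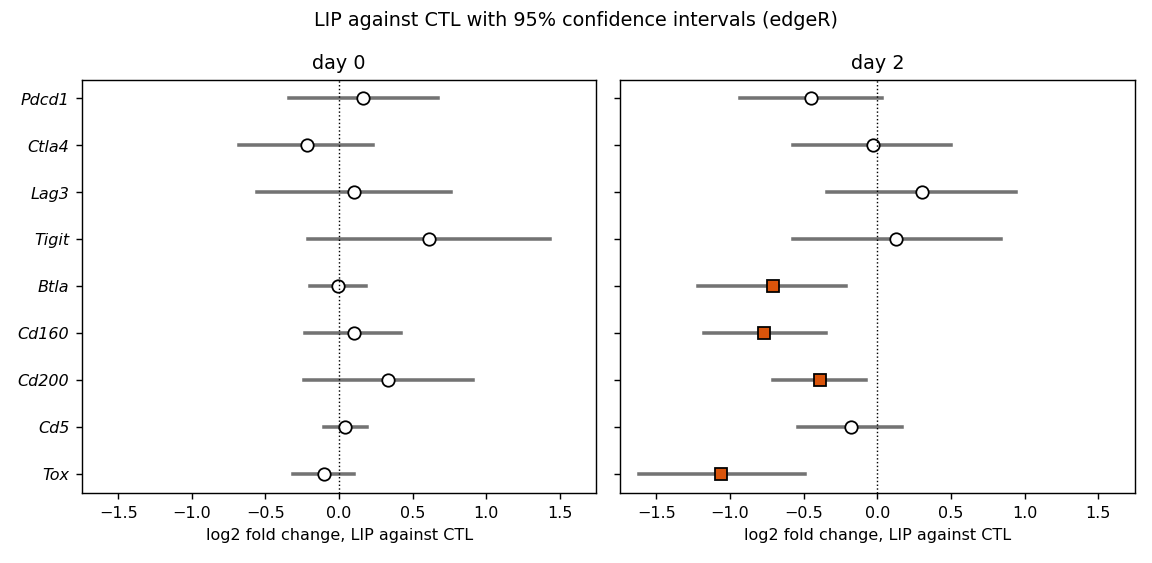
Log2 fold change of LIP against CTL (horizontal axis) for the 9 tested members on day 0 (panel at left) and day 2 (panel at right), with 95% intervals from edgeR as lines. Filled squares mark genes whose 3 LIP libraries do not overlap the 3 CTL libraries and open circles the others. On day 0 every interval spans 0, and on day 2 those of Tox, Cd160, Btla and Cd200 lie below 0 although no adjusted p is under 0.05.

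LIP 90 stood apart from the other LIP libraries of day 2 for several members. Pdcd1 was 79.0 CPM in LIP 90 against a mean of 48.2 CPM in LIP 96 and LIP 97 and 79.3 CPM in the CTL group. Lag3 was 209.9 CPM in LIP 90 against 453 CPM in LIP 96 and LIP 97 and 300.5 CPM in the CTL group, and Tigit was 65.2 CPM against 146 and 108 CPM. Without LIP 90, 2014 genes of the whole table passed the test, and 5 members did: Tox (−1.22, adjusted p = 0.0124), Btla (−0.85, adjusted p = 0.0261), Cd160 (−0.83, adjusted p = 0.0237) and Pdcd1 (−0.70, adjusted p = 0.0152) were lower and Lag3 was higher (0.61, adjusted p = 0.0195, edgeR). This fit rests on 2 LIP libraries. Leaving out any other day 2 library gave no call among the members.

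**Figure D4:**
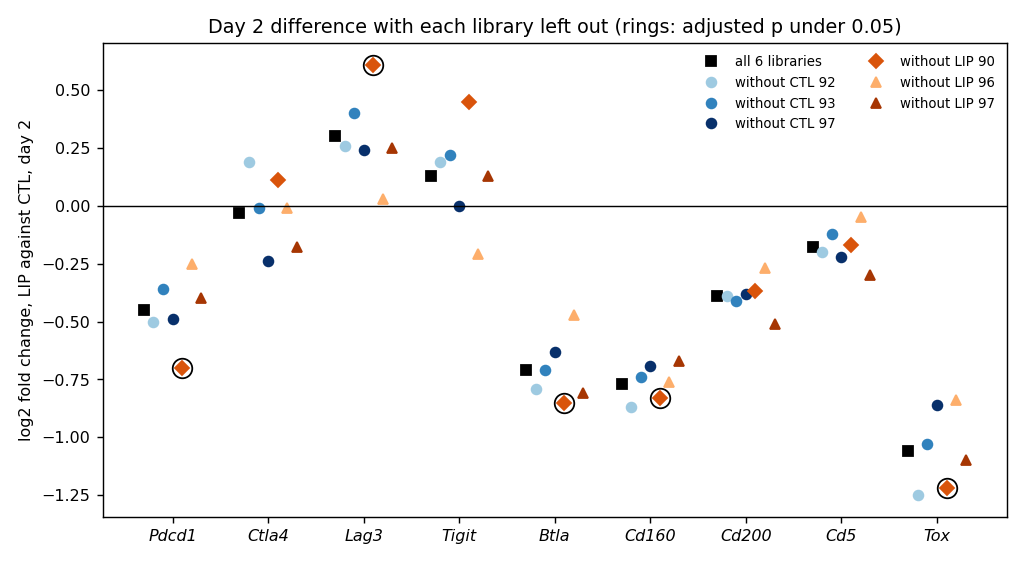
Log2 fold change of LIP against CTL on day 2 (vertical axis) for the 9 tested members, with all 6 libraries (black squares) and with each library left out in turn (other symbols). Rings mark an adjusted p under 0.05, which is reached only in the fit without LIP 90, for 5 members. Tox lies between −0.84 and −1.25 in the leave-one-out fits, while Ctla4 and Tigit lie on both sides of 0.

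Libraries whose entries name the same antibody can be set side by side as 3 pairs, each of 1 CTL and 1 LIP library. Because the protocol names anti-CD28 for every culture, it is not known whether these entries are right, and if they are not, these pairs and a fit with the entry as a block are arbitrary. Tox was lower in the LIP library in each of the 3 pairs, with log2 ratios of −0.26 (anti-CD28, CTL 92 and LIP 90), −1.61 (anti-CD29, CTL 93 and LIP 96) and −1.28 (anti-CD30, CTL 97 and LIP 97). Cd160 gave −0.36, −0.80 and −1.12, Btla −0.26, −1.31 and −0.68, and Cd200 −0.39, −0.61 and −0.19. Pdcd1 gave 0.09, −1.07 and −0.47 and Lag3 −0.44, 0.57 and 0.54, so the pair with LIP 90 went the other way for both. Ctla4 gave −0.67, −0.10 and 0.79. With the antibody entry as a block, a fit chosen after seeing the data and left with 2 residual degrees of freedom, none of the 14041 genes was called (edgeR; 1839 at an unadjusted p under 0.05). Tox was then at −1.06 (SE 0.26; adjusted p = 0.175), Cd160 at −0.76 (SE 0.22; adjusted p = 0.243), Btla at −0.76 (SE 0.21; adjusted p = 0.233) and Cd200 at −0.41 (SE 0.15; adjusted p = 0.324).

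The difference of the LIP effect between the days was tested as an interaction. No member was called, against 0.0517% of the 15475 genes tested, and 4 members had an unadjusted p under 0.05, against 15.9% of genes. DESeq2 called 520 genes and no member. The estimate was −0.93 (SE 0.29; interval −1.56 to −0.31; adjusted p = 0.140, edgeR) for Tox, −0.84 (SE 0.23; adjusted p = 0.116) for Cd160, −0.69 (SE 0.26; adjusted p = 0.206) for Btla and −0.71 (SE 0.30; adjusted p = 0.264) for Cd200. The call that Tox and Cd160 fell in culture in the LIP group and not in the CTL group is therefore not shown to differ between the groups in this fit, a result that depended on the setting. With all 12 libraries and no filter on low counts the interaction passed for Tox (−0.93, adjusted p = 0.00163) and Btla (−0.69, adjusted p = 0.0210). Without LIP 90 the interaction passed for Tox (−1.13, adjusted p = 0.0183), Cd160 (−0.93, adjusted p = 0.0245) and Btla (−0.86, adjusted p = 0.0337).

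Markers of T cell subsets were read in the same libraries. On day 2 none of the regulatory, resting or follicular helper T cell markers was called between LIP and CTL. Of 7 regulatory T cell markers, Foxp3, Ikzf2, Nrp1 and Gpr83 did not overlap on day 2 and were lower in the LIP group, where 21.3% of all genes did not overlap. Foxp3, the lineage factor of these cells, stood at 35.9, 42.3 and 41.7 CPM in the CTL libraries and 31.8, 27.9 and 29.4 CPM in the LIP libraries, with a log2 fold change of −0.44 (SE 0.12; adjusted p = 0.168, edgeR). Nrp1 had a log2 fold change of −1.06 (SE 0.26; adjusted p = 0.139), Ikzf2 of −0.46 and Gpr83 of −0.30. Il2ra, Ikzf4 and Tnfrsf18 overlapped, and the summed level of the list, most of it Il2ra, was 1748 to 2323 CPM in the CTL group and 1993 to 2228 CPM in the LIP group. On day 0 the same list summed to 393 to 537 CPM in the CTL group and 569 to 618 CPM in the LIP group, with Ikzf2 (0.49, SE 0.14; adjusted p = 0.162) and Il2ra (0.34, SE 0.08; adjusted p = 0.112) not overlapping (19.2% of all genes). The 5 markers of resting T cells summed to 897 to 986 CPM in the CTL group and 1094 to 1642 CPM in the LIP group on day 2. The 5 follicular helper markers summed to 29.1 to 84.9 CPM in the CTL group and 61.2 to 75.4 CPM in LIP 90 and LIP 97, with 318 CPM in LIP 96, of which Il21 made up 305 CPM. Bcl6, the lineage factor of follicular helper cells, went the other way and stood at 17.3, 28.8 and 14.6 CPM in the CTL libraries and 12.5, 5.90 and 13.1 CPM in the LIP libraries, without overlap (−0.96, SE 0.34; adjusted p = 0.226, edgeR). The part of these markers in the differences of Tox, Cd160, Btla and Cd200 was not tested.

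Among 14 ligands and binding partners of the members, 13 were tested over the culture, of which 6 rose and 2 fell in the CTL group, and 7 rose and 1 fell in the LIP group. The shares over all genes were 35.3% higher and 33.7% lower in CTL cells, and 36.6% and 35.2% in LIP cells. Pdcd1lg2 (PD-L2) stood at 1.20 to 1.96 CPM in the CTL group on day 0 and 40.5 to 46.7 CPM on day 2, a rise of 4.78 on the log2 scale (SE 0.18), with 4.02 (SE 0.17) in the LIP group. Cd274 (PD-L1) rose by 2.40 and 2.20. Cd80, a ligand of CTLA-4 and CD28, rose by 2.01 (SE 0.21) in the CTL group and 1.09 (SE 0.21) in the LIP group. Nectin3, an adhesion molecule of the nectin family, also rose in both, but from 0 to 0.276 CPM on day 0, under the 3-count limit, to 2.61 to 3.49 CPM (CTL) and 1.43 to 2.15 CPM (LIP), so no fold is given. Lgals9, a proposed ligand of TIM-3, rose in the LIP group by 1.17 (SE 0.17), and in the CTL group its change was 0.24 (adjusted p = 0.230, edgeR). Hmgb1, another proposed partner of TIM-3, rose by 0.85 and 1.41.

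Between the groups none of these partners was called on either day. On day 2, Cd80 stood at 24.9, 21.4 and 19.4 CPM in the CTL libraries and 13.0, 8.71 and 12.6 CPM in the LIP libraries (−0.95, SE 0.19, adjusted p = 0.119, edgeR). Cd86, the other ligand of CTLA-4 and CD28, went the other way at low levels and with overlap. It stood at 0.528, 0.478 and 2.04 CPM in the CTL libraries and 1.34, 4.49 and 4.79 CPM in the LIP libraries (1.77, SE 0.65, adjusted p = 0.237). Lgals9 was higher without overlap in the LIP group (0.90, SE 0.21, adjusted p = 0.131). In all, 5 of the 13 tested did not overlap on day 2, against 21.3% of all genes, and 2 of 11 on day 0, against 19.2%.

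Of 11 other inhibitory receptor genes, 10 records were tested over the culture, and 4 rose and 5 fell in each group, where 33.7% to 36.6% of all genes were called in a given direction. Cd96, which binds PVR as TIGIT does, fell by 2.04 (SE 0.11) in the CTL group and 2.16 (SE 0.11) in the LIP group. Vsir (VISTA) fell by 1.25 and 1.54, and Pecam1 fell by 1.38 and 1.50. Cd6, a close relative of Cd5, rose by 1.50 and 1.32. Lilrb4a is given by 2 records that share a symbol, both of which rose, and their counts are uncertain because near-identical copies can share reads. Of the activating receptors that share ligands with members, Icos rose by 2.62 and 2.70 and Cd28 by 1.17 and 1.36, whereas Cd226 fell by 2.03 and 2.18. None of these lists held a call between LIP and CTL on either day, and of the other receptors 4 of 9 records did not overlap on day 0 (19.2% of all genes) and 0 of 8 on day 2 (21.3%).

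CD30L (CD153, gene Tnfsf8) and KLRG1, which the study stained by flow cytometry along with PD-1, were read in the same libraries. In cultured bulk splenocytes the study reported a larger share of CD4+ cells positive for both PD-1 and CD153 in the LIP group. Pdcd1 RNA on day 2 was 79.3 ± 8.59 CPM in the CTL group and 58.5 ± 18.7 CPM in the LIP group, with overlap. A share of stained cells and an RNA level in purified cells are different measures. Tnfsf8, a TNF-family ligand of activated T cells, stood at 1282, 971 and 1161 CPM in the CTL libraries and 1484, 2126 and 1629 CPM in the LIP libraries on day 2 (0.61, SE 0.18; adjusted p = 0.175, edgeR), without overlap. Over the culture it rose by 3.55 (SE 0.16) in the CTL group and 4.00 (SE 0.16) in the LIP group. Klrg1, an inhibitory receptor of differentiated effector cells, stood at 1.69 to 3.68 CPM in the CTL group and 4.00 to 5.88 CPM in the LIP group on day 0 (0.86, SE 0.31; adjusted p = 0.246). It stood at no more than 0.740 CPM on day 2, and fell in both groups.

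Of 22 transcription factor genes listed around Tox, 21 were tested over the culture, and 10 rose and 6 fell in each group, beside the same 33.7% to 36.6% over all genes. Irf4, a factor induced in proportion to T cell receptor signal, rose from 20.1 to 32.2 CPM in the CTL libraries on day 0 to 1661 to 1771 CPM on day 2 (6.06, SE 0.19), with 6.19 (SE 0.19) in the LIP group. Bhlhe40 rose by 3.39 and 3.95 and Nr4a3 by 2.94 and 3.75. Tcf7, which encodes TCF-1 of naive and memory T cells, fell by 1.71 and 1.99.

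No factor was called between the groups. On day 0 the early response gene Nr4a1 stood at 43.4, 40.3 and 17.8 CPM in the CTL libraries and 15.6, 12.1 and 14.2 CPM in the LIP libraries (−1.27, SE 0.27; adjusted p = 0.0723, edgeR), and Nr4a3 was also lower without overlap (−0.53, SE 0.12; adjusted p = 0.0842). On day 2 Bhlhe40 was higher in the LIP group without overlap (0.58, SE 0.15; adjusted p = 0.142). Ikzf2, which is also on the regulatory T cell list, and Bach2 (−0.57, SE 0.16; adjusted p = 0.170) were lower without overlap. Of the relatives of Tox, Tox2 and Tox4 were named after their values were seen, and Tox3 had 0 counts. Tox2 stood at 1.93 to 2.96 CPM in the CTL group and 1.17 to 1.40 CPM in the LIP group on day 2 (−0.94, SE 0.31, adjusted p = 0.202). The more abundant Tox4 overlapped on day 2, at 149 to 156 CPM in the CTL group and 139 to 172 CPM in the LIP group. Not overlapping were 7 of 20 tested factors on day 0, against 19.2% of all genes, and 9 of 21 on day 2, against 21.3%.

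**Figure D5:**
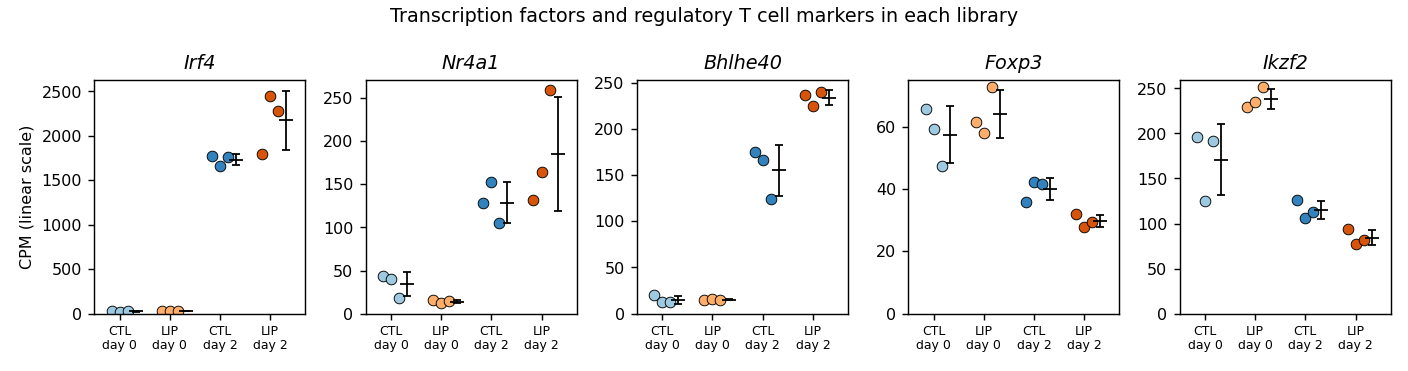
Expression in each library, in CPM on linear axes from 0, of the transcription factor genes Irf4, Nr4a1 and Bhlhe40 and the regulatory T cell markers Foxp3 and Ikzf2. Points are the 3 libraries of each group and bars are mean ± SD. Irf4 rises to 1661 CPM or more on day 2, Nr4a1 is lower in LIP than in CTL libraries on day 0, and Foxp3 and Ikzf2 are lower in the LIP group on day 2 without overlap.

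The genes whose pattern over the 12 libraries was most like that of a member were found by the root mean square difference of centred log2(CPM + 0.5), among 12366 other genes. For Pdcd1 these were Ell2 (0.17), H1f0 (0.19) and Sdf2l1 (0.19), where the median over genes was 1.22. For Tox they were Smyd3 (0.20), Ak5 (0.21) and Igsf3 (0.23), where the median was 0.69. On day 2 Smyd3 stood at 31.8 ± 4.98 CPM in the CTL group and 19.7 ± 4.81 CPM in the LIP group, and Igsf3 at 6.62 ± 0.532 and 3.24 ± 0.523 CPM. These genes were chosen for following Tox over the same libraries, so their lower level in the LIP group follows from the choice. The member nearest to Tox was Cd160, at 0.26.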

How the data were processed

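RNA from splenic CD4+ T cells was depleted of ribosomal RNA, made into directional libraries and sequenced as paired 150-base reads on a DNBSEQ-G400. The submitters' processing notes name FastQC 0.11.9, Trimmomatic 0.38 (the study's methods give another version), Bowtie2, RSEM 1.3.0 and GRCm39. The deposited matrix holds RSEM expected counts, not normalized, for 55414 gene records. The deposited tables of each day pair identifiers with symbols and hold the authors' fold changes and p-values, which were not used, and 2 columns of libraries that match no label, also not used.

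Expected counts were rounded to whole numbers. LIP was compared with CTL within each day, and days and the interaction were tested in one fit of all 12 libraries, with edgeR 4.0.16 (R 4.3.3; filterByExpr with a minimum of 10 counts, TMM, quasi-likelihood test, two-sided, Benjamini-Hochberg over all genes, threshold 0.05). CPM used the effective library sizes of the 12-library fit. DESeq2 1.42.0 and the other settings in the closing section were alternatives, the fits with total counts only and with the antibody entry as a block being chosen after seeing the data. The scripts were tested on simulated data. Promoter windows came from GRCm39 with GENCODE M39.

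The members and gene lists were chosen with earlier results of these data known. Genes named were the 10 members, Tnfsf8, Klrg1, in each list at most the 4 with the smallest adjusted p in a comparison, and the 3 most like Pdcd1 and Tox. Other genes were named after their values were seen, including the markers of T cell subsets.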

Additional observations from a re-analysis of the deposited data

How the results depend on the processing

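With 3 libraries a group, counts of calls between LIP and CTL depended on the setting. The 60 genes called on day 0 became 645 with no filter on low counts, 202 with DESeq2, 12 with all 12 libraries in one fit, and 13 to 658 with 1 library left out (658 without CTL 94). The 0 genes on day 2 became 662 with no filter, 485 with DESeq2, 775 with all 12 libraries in one fit, 1 with total counts only, 1 with at least 10 counts in every library, and 0 to 2014 with 1 library left out (2014 without LIP 90). The 8 genes of the interaction became 815 with no filter, 520 with DESeq2, 97 with total counts only, and 1 to 1596 with 1 library left out (1596 without LIP 90). Of the members, 0 on day 2 became 2 with no filter (Tox and Btla), 1 with DESeq2, 3 with all 12 libraries in one fit and 0 to 5 with 1 library left out. For the interaction 0 became 2 with no filter (Tox and Btla) and 0 to 3 with 1 library left out. Members that did not overlap numbered 0 on day 0, 1 with total counts only, 1 with no filter and 0 to 3 with 1 library left out, and 4 on day 2, with 4 to 7. The causes were not tested.

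Signs turned for the following estimates. Btla on day 0 became 0.06 with total counts only, Ctla4 on day 2 0.00 with no filter, and the day change of Tox in the CTL group 0.03 with no filter. With 1 library left out, day 0 estimates ran from −0.10 to 0.33 for Pdcd1, −0.40 to 0.13 for Ctla4, −0.17 to 0.32 for Lag3, −0.10 to 0.06 for Btla and −0.03 to 0.17 for Cd160. Day 2 estimates ran from −0.24 to 0.19 for Ctla4 and −0.21 to 0.45 for Tigit, those of the day change in the CTL group from −0.17 to 0.06 for Cd160 and −0.19 to 0.19 for Tox, and those of the interaction from −0.16 to 0.43 for Ctla4 and −0.07 to 0.50 for Lag3. The 7 rises over the culture kept their direction in every setting run, and the exception in significance was Btla in the LIP group. By replicate number, no paired analysis was possible because the groups compared share at most 1 number. With the antibody entry as a block, 0 genes were called on day 2.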

Other observations

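Downstream inhibitors of T cell receptor signalling were also read. Of 23 such genes, 7 rose and 11 fell over the culture in the CTL group, and 8 rose and 14 fell in the LIP group (edgeR, adjusted p under 0.05). Over all genes, 33.7% to 36.6% were called in a given direction. Pag1, which anchors the inhibitory kinase Csk at the membrane, fell by 2.91 (SE 0.13) on the log2 scale in the CTL group and 2.33 (SE 0.13) in the LIP group. Ubash3a, a phosphatase that restrains receptor signalling, fell by 1.57 and 1.65, and the adaptor Sla2 fell by 1.60 and 1.63, whereas its relative Sla rose by 1.69 and 1.66. Ptpn6, which encodes the phosphatase SHP-1, was named after its values were seen and rose by 0.84 and 0.80. None was called between LIP and CTL. On day 2, Ptpn2 was higher in the LIP group (0.48, SE 0.11; adjusted p = 0.131), and Ubash3b (−0.64, SE 0.18; adjusted p = 0.157) and Lax1 (−0.79, SE 0.22; adjusted p = 0.167) were lower, each without overlap. Of 22 tested, 8 did not overlap on day 2, against 21.3% of all genes, and 6 of 23 on day 0, against 19.2%.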
